A study of Solanum lycopersicum with 18 samples.

Results

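Transcripts for the entry into phenylpropanoid metabolism and for the branch towards chlorogenic acid were followed in red ripe tomato (Solanum lycopersicum) fruit through 10 genes. The genes were taken by their ID as the 5 phenylalanine ammonia-lyase (PAL) genes, the 2 4-coumarate:CoA ligase (4CL) genes, 1 4CL-like gene, 1 gene for hydroxycinnamoyl-CoA shikimate/quinate hydroxycinnamoyl transferase (HCT) and 1 for hydroxycinnamoyl-CoA quinate hydroxycinnamoyl transferase (HQT). They stand among 34725 gene IDs listed for the H and SM fruit and 34724 for the RSV fruit. The groups compared were field-grown fruit from Acerra and from Sarno, both in Campania, of each of 3 varieties. These were Heinz (H), the variety of the tomato reference genome, and the local San Marzano (SM) and Vesuviano (RSV). Each of the 6 groups, H Acerra, H Sarno, SM Acerra, SM Sarno, RSV Acerra and RSV Sarno, had 3 RNA-seq libraries, 18 in all. Fruit was pooled within a plot and divided into aliquots, and the methods do not state whether the 3 libraries of a group are plots or aliquots. The p-values therefore measure the spread between libraries, which may be technical. Location, soil and weather cannot be told apart as sources of a difference between Acerra and Sarno.

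PAL takes the amino group from phenylalanine and gives cinnamic acid, the step that commits carbon to phenylpropanoids. After hydroxylation, 4CL links the acid to coenzyme A, and the activated acid can go to lignin precursors, flavonoids or hydroxycinnamate esters. HCT moves the acyl group to shikimate on the way to lignin precursors, while HQT moves it to quinate and is the main route to chlorogenic acid in tomato, a major soluble phenolic of solanaceous tissues.

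The values were FPKM, fragments scaled to transcript length and to the number of mapped fragments. Levels can be set beside each other between genes on this scale, but the FPKM total was not equal between libraries. The 10 gene IDs fell on 9 values in each variety, because Solyc09g007910 and Solyc09g007920 shared 1 value in all 3. In H, Solyc10g086180 was joined with its neighbour Solyc10g086190, and in RSV, Solyc09g007900 was joined with Solyc09g007930. No member was listed at 0 in any library. In RSV both chromosome 9 values carried 1 common span, so the division of reads between these similar neighbouring PAL genes is uncertain there. The location test was limma on log2(FPKM + 0.5), over loci that averaged 0.5 FPKM or more across the 6 libraries of a variety, with Benjamini-Hochberg adjustment over all loci tested and a threshold of 0.05. Log2 fold changes are Acerra minus Sarno. The added 0.5 understates changes of low values. Levels were not tested between varieties, since each had its own genome assembly and its own expression run. Fewer cells of a type and less RNA per cell cannot be told apart in such bulk samples.

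Over all loci, the threshold was passed by 8.83% of 18089 H loci, 8.21% of 18150 SM loci and 11.8% of 18328 RSV loci. Calls higher in Acerra made up 6.58%, 6.07% and 6.11% of the loci tested, in the order H, SM and RSV, and calls higher in Sarno 2.26%, 2.14% and 5.72%. The libraries were not equal. RSV Sarno replicate 3 summed to 3279110 FPKM, with 993065 FPKM at 1 locus, while the other 17 libraries summed to between 892841 and 1433620 FPKM. In SM, 1 locus held 418428 of 1433620 FPKM in Sarno replicate 1 and 1 locus 345940 of 1329250 FPKM in Acerra replicate 2. In the remaining libraries the highest locus was at most 113683 FPKM. Without RSV Sarno replicate 3, 4176 loci (22.8% of 18277) passed in RSV instead of 2167, 10.5% higher in Acerra and 12.3% higher in Sarno. Location tests of the members in RSV are given below with and without it, as are most counts of RSV calls, list sums, transcript shares and correlations. In H the Acerra libraries summed to between 1129710 and 1168360 FPKM, against 892841 to 951610 FPKM in the Sarno libraries, and the median log2 fold change of all loci was 0.10. Rescaling by the median ratio moved that median to -0.03, with 549 loci called higher in Acerra and 472 in Sarno in place of 1190 and 408. Quantile normalization gave 424 and 407 in H, and 1027 and 905 in SM in place of 1102 and 388. By the study's sequencing statistics the Sarno libraries of SM and RSV were all sequenced deeper than the corresponding Acerra libraries. The ripe fruit markers summed to between 5170 and 18910 FPKM in every library, and the 2 chlorophyll a-b binding genes taken as markers of green tissue to at most 14.6 FPKM. One ripe fruit marker, Solyc03g031860, was listed at 0 in all 3 SM Sarno libraries.

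Of the 9 values, 2 passed the threshold in H, both higher in Acerra. In SM 3 of 8 tested passed, all higher in Acerra, and in RSV 2 of 9 passed, 1 higher in Acerra and 1 in Sarno. Without RSV Sarno replicate 3, 5 of 9 passed in RSV, 3 higher in Acerra and 2 in Sarno, beside 22.8% of all loci. The 5 included both of the 2. The tested members had a median log2 fold change of 0.39 (H), 0.83 (SM) and 0.25 (RSV), beside 0.10, 0.02 and -0.02 over all loci. The RSV median was 0.20 without Sarno replicate 3, beside -0.01. Values with the 3 Acerra libraries all above the 3 Sarno libraries were found for 3 of 9 H members, 5 of 8 tested SM members and 3 of 9 RSV members. Of all tested loci, 24.5%, 18.2% and 18.5% did so. Values with the 3 Acerra libraries all below were found for 2 H members, 0 SM members and 1 RSV member, beside 12.4%, 14.9% and 19.4% of all tested loci.

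**Figure D1:**
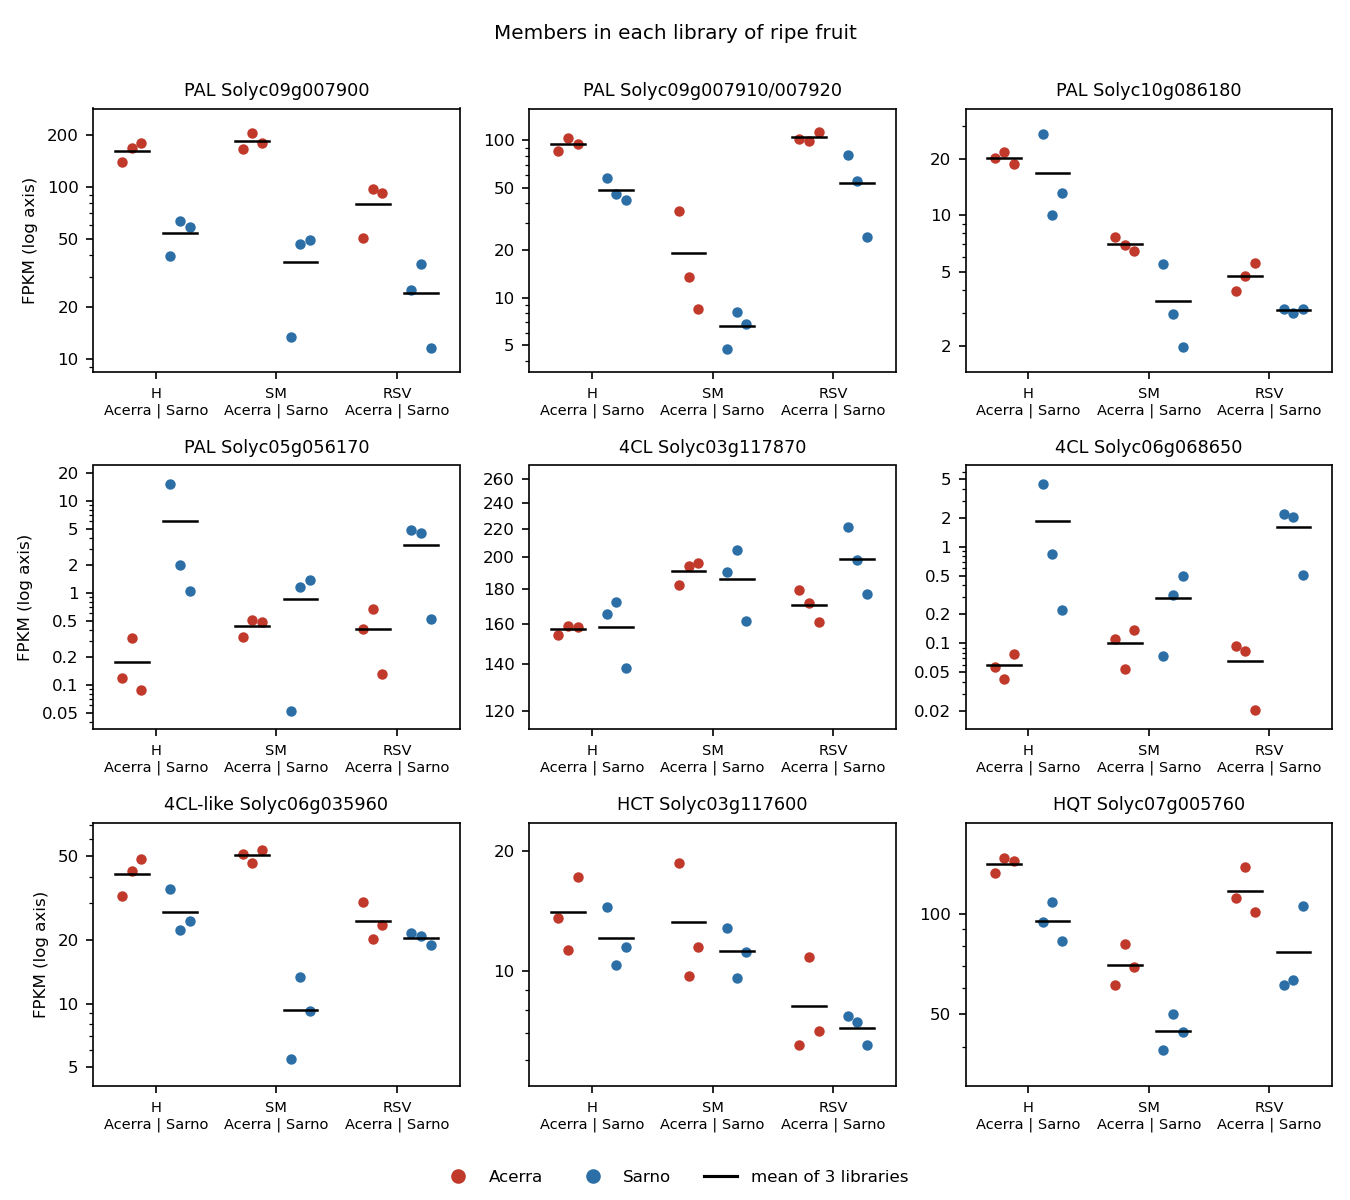
FPKM of each member (log axis) in the 18 libraries, by variety, with Acerra (red) left of Sarno (blue); points are libraries and black lines the means of 3. The PAL locus Solyc09g007900 has all Acerra points above all Sarno points in H, SM and RSV, the 4CL Solyc03g117870 has overlapping points near 138 to 221 FPKM throughout, and the 4CL-like Solyc06g035960 has its widest gap in SM.

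Summed PAL transcripts were more abundant in Acerra fruit, and the PAL values that passed the test were those of the chromosome 9 cluster. Solyc09g007900 passed the threshold in all 3 varieties and was the PAL value with the highest mean in H and SM. In H it is at chr9:1419040-1422226 (build SL2.40), 6904 bases from the locus that joins Solyc09g007910 and Solyc09g007920. The PAL loci on chromosomes 5 and 10 were lower in level, with means of at most 20.2 FPKM in any group.

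Solyc09g007900 measured 139, 169 and 180 FPKM in the H Acerra libraries, against 39.9, 63.1 and 58.8 FPKM in the H Sarno libraries. In SM it measured 166, 206 and 181 FPKM in Acerra, against 13.5, 46.6 and 49.3 FPKM in Sarno. In RSV it measured 50.3, 96.5 and 91.5 FPKM in Acerra, against 25.0, 35.6 and 11.6 FPKM in Sarno. The locations did not overlap in any variety, and the gap was widest in SM, where Sarno replicate 1 was low. The log2 fold change was 1.60 (SE 0.20) in H with an adjusted p of 0.0177, 2.52 (SE 0.47) in SM with 0.0257, and 1.78 (SE 0.44) in RSV with 0.0499, by limma. As ratios of means these were 3.01, 5.05 and 3.30. Leaving out H Acerra replicate 1, 2 or 3 gave adjusted p values of 0.0521, 0.084 and 0.0733, and leaving out SM Acerra replicate 1, 2 or 3 gave 0.0741, 0.0933 and 0.104. In RSV the call was lost without any library but Sarno replicate 3 (Acerra replicates 1, 2 and 3: 0.0776, 0.142 and 0.149, Sarno replicates 1 and 2: 0.121 and 0.0607), while without Sarno replicate 3 the log2 fold change was 1.34 (adjusted p = 0.0303). Without SM Sarno replicate 1 the SM value was 1.93 (adjusted p = 0.00323). The RSV call, at the threshold, was also lost in 6 of 9 other settings, with a pseudocount of 0.1 (adjusted p = 0.0502), no filter on low loci (0.164), quantile normalization (0.0505), no trend in the variance (0.0588), robust eBayes (0.0532) and a replicate block (0.0721). Without the filter the H and SM calls were lost as well (0.057 and 0.135).

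The joint value of Solyc09g007910 and Solyc09g007920, which spans chr9:1429131-1444221 in H, was 85.5, 103 and 95.4 FPKM in H Acerra, against 57.5, 45.4 and 42.0 FPKM in H Sarno. It rose in H, with a log2 fold change of 0.97 (SE 0.15, adjusted p = 0.0227 by limma). In SM the values were 35.5, 13.5 and 8.55 FPKM in Acerra, against 4.75, 8.17 and 6.87 FPKM in Sarno. Acerra replicate 1 lay far above the other SM libraries, and the log2 fold change of 1.26 (SE 0.49) had an adjusted p of 0.171. In RSV it was the leading PAL value, with 102, 98.5 and 113 FPKM in Acerra, against 81.3, 55.2 and 24.3 FPKM in Sarno. The RSV log2 fold change was 1.12 (SE 0.41, adjusted p = 0.127), and 0.64 (SE 0.17, adjusted p = 0.0471) without Sarno replicate 3. The Acerra libraries were above the Sarno libraries in each variety, though the test was passed in H alone with all libraries in. The H call was lost without Acerra replicate 1 (adjusted p = 0.0686), Acerra replicate 2 (0.0976), Acerra replicate 3 (0.0844) or Sarno replicate 2 (0.0572), and with quantile normalization (0.0763).

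The PAL locus on chromosome 10, Solyc10g086180, joined with Solyc10g086190 in H, had a mean of 20.2 ± 1.48 FPKM in H Acerra and 16.7 ± 9.06 FPKM in H Sarno (SD, n = 3). In H the libraries overlapped, with Sarno replicate 1 at 27.0 FPKM above all others. In SM it measured 7.62, 6.90 and 6.45 FPKM in Acerra, against 5.46, 2.97 and 1.99 FPKM in Sarno. In RSV it measured 3.97, 4.75 and 5.56 FPKM in Acerra, against 3.17, 3.00 and 3.18 FPKM in Sarno. No overlap was seen in SM or RSV, yet no variety passed the threshold. The log2 fold changes were 0.39 (SE 0.34, adjusted p = 0.48) in H, 1.01 (SE 0.31, adjusted p = 0.101) in SM and 0.53 (SE 0.15, adjusted p = 0.0709) in RSV. Without SM Sarno replicate 1 the SM value was 1.35 with an adjusted p of 0.0166, and with quantile normalization the RSV value was 0.61 with 0.0456. Without Sarno replicate 3 the RSV value was 0.54 (adjusted p = 0.0666).

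Solyc05g056170, the PAL locus on chromosome 5 (chr5:64706395-64710169 in H), had negative log2 fold changes in the 3 varieties. It measured 0.119, 0.324 and 0.0877 FPKM in H Acerra, against 15.3, 2.01 and 1.05 FPKM in H Sarno. In RSV it measured 0.409, 0.668 and 0.133 FPKM in Acerra, against 4.83, 4.55 and 0.527 FPKM in Sarno, with replicate 3 of Sarno inside the Acerra range. In SM it measured 0.333, 0.504 and 0.483 FPKM in Acerra, against 0.0526, 1.15 and 1.39 FPKM in Sarno. The Sarno libraries thus spread widely and the Acerra libraries stayed under 1 FPKM. None of the log2 fold changes passed with all libraries: -2.56 (SE 0.82, adjusted p = 0.098) in H, -0.36 (SE 0.48, adjusted p = 0.676) in SM and -1.79 (SE 0.66, adjusted p = 0.13) in RSV. Without RSV Sarno replicate 3 the RSV value was -2.57 (SE 0.28, adjusted p = 0.00276). The H value was -1.56 without Sarno replicate 1 (adjusted p = 0.0557), -3.23 without Sarno replicate 3 (0.0568) and -3.69 with a pseudocount of 0.1 (0.0615). With that pseudocount the RSV value was -2.43 (0.128).

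Added over the 4 PAL values, the level was 244, 294 and 294 FPKM in H Acerra, against 140, 121 and 115 FPKM in H Sarno. In SM it was 210, 226 and 196 FPKM in Acerra, against 23.7, 58.9 and 59.5 FPKM in Sarno. In RSV it was 157, 200 and 210 FPKM in Acerra, against 114, 98.4 and 39.6 FPKM in Sarno. The sum did not overlap between locations in any variety, with ratios of means of 2.22 (H), 4.45 (SM) and 2.25 (RSV), given as a description without a test. RSV Sarno replicate 3 was the lowest RSV library, and without it the RSV ratio was 1.78.

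The composition of the sum is given as a description. Solyc09g007900 made up 58.4 ± 2.37% of the sum in H Acerra and 44.0 ± 13.4% in H Sarno (SD, n = 3). In SM it made up 87.4 ± 7.04% in Acerra and 72.9 ± 14.1% in Sarno. In RSV it made up 41.2 ± 8.29% in Acerra and 29.1 ± 7.15% in Sarno, and the joint value of Solyc09g007910 and Solyc09g007920 made up 56.0 ± 8.24% and 62.9 ± 7.60%. Without replicate 3 these RSV Sarno means were 29.0% and 63.6%. The leading PAL value was therefore Solyc09g007900 in SM and the joint value in RSV, as separate runs assigned the reads. In H, where it is joined with Solyc10g086190, Solyc10g086180 made up 7.34 ± 0.900% in Acerra and 13.0 ± 5.68% in Sarno, with 19.3% in Sarno replicate 1. In SM it made up 3.32 ± 0.294% in Acerra and 10.5 ± 10.9% in Sarno. In SM Sarno replicate 1 it made up 23.0%, above the joint value (20.0%). In RSV it made up 2.51 ± 0.136% in Acerra and 4.61 ± 2.96% in Sarno, or 2.91% in Sarno without replicate 3. Solyc05g056170 stayed at or under 0.333% of the sum in every Acerra library, and reached 10.9% in H Sarno replicate 1.

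**Figure D2:**
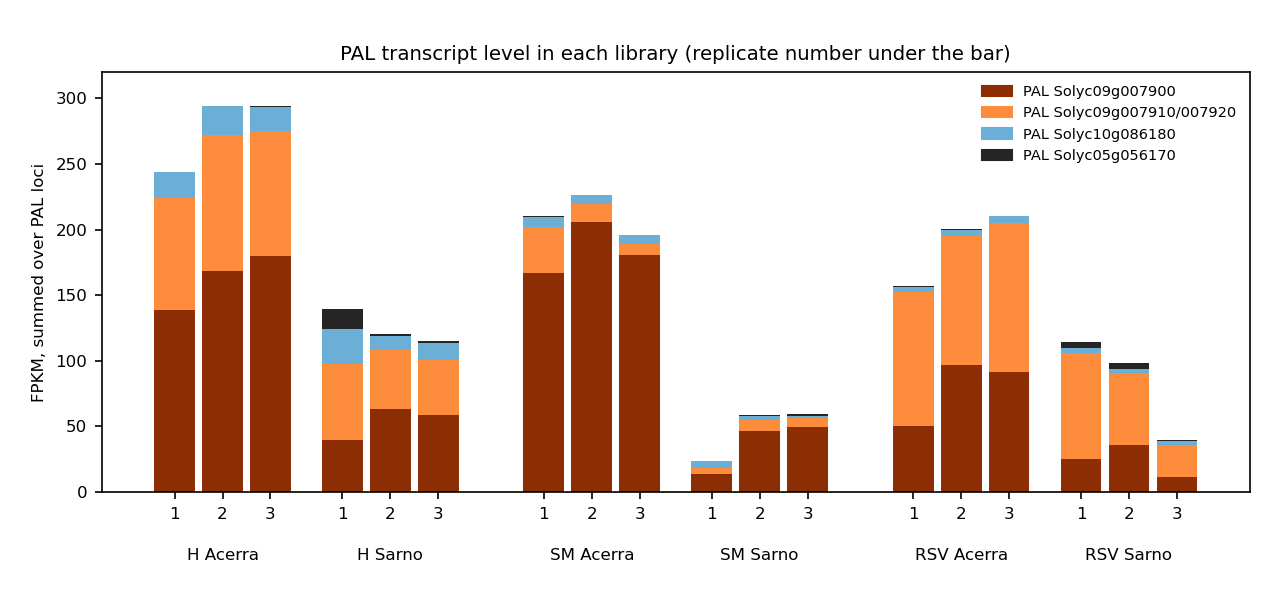
FPKM summed over the 4 PAL values in each library (stacked bars, from 0), by variety and location, with replicate numbers under the bars. Every Acerra bar is higher than every Sarno bar of its variety, and the division between Solyc09g007900 and the joint value differs between SM and RSV.

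Of the coenzyme A ligases, the abundant 4CL gene passed no location test, the 4CL-like gene rose in SM Acerra, and the other 4CL gene was a rare transcript with higher values in Sarno. Solyc03g117870 (chr3:60933968-60937850 in H) is 1 of the members with the highest and steadiest levels. It averaged 157 ± 2.56 FPKM in H Acerra and 159 ± 17.8 FPKM in H Sarno (SD, n = 3), 191 ± 7.37 FPKM in SM Acerra and 186 ± 22.1 FPKM in SM Sarno, and 171 ± 9.07 FPKM in RSV Acerra and 199 ± 22.0 FPKM in RSV Sarno. All 3 pairs overlapped. The H log2 fold change was -0.01 (95% interval -0.31 to 0.30), that of SM 0.05 (-0.26 to 0.35) and that of RSV -0.21 (-0.49 to 0.07), with adjusted p values of 0.983, 0.847 and 0.267 by limma. In SM the sign turned with quantile normalization, to -0.17, and the signs in H and SM turned with single libraries left out. Without Sarno replicate 3 the RSV value was -0.29 (adjusted p = 0.0904).

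Solyc06g068650 stayed at or under 0.138 FPKM in every Acerra library. It measured 0.0568, 0.0428 and 0.0768 FPKM in H Acerra, against 4.44, 0.841 and 0.219 FPKM in H Sarno. In RSV it measured 0.0925, 0.0835 and 0.0201 FPKM in Acerra, against 2.20, 2.05 and 0.516 FPKM in Sarno. The locations did not overlap in H or RSV. In SM it measured 0.110, 0.0537 and 0.138 FPKM in Acerra, against 0.0729, 0.316 and 0.496 FPKM in Sarno, and its mean was too low to be tested. It fell in RSV Acerra relative to Sarno, with a log2 fold change of -1.76 (SE 0.40, adjusted p = 0.0393 by limma), while H gave -1.59 (SE 0.67, adjusted p = 0.172), or -2.20 without H Sarno replicate 3 (0.0658) and -2.81 with a pseudocount of 0.1 (0.113). The RSV value depended on the pseudocount, being -3.16 with 0.1 in place of 0.5 (adjusted p = 0.0244). The call was lost without RSV Acerra replicate 1, 2 or 3 (adjusted p = 0.116, 0.106 and 0.121) or Sarno replicate 1 or 2 (0.121 and 0.117) and with quantile normalization (0.0515), and without Sarno replicate 3 the value was -2.22 (adjusted p = 0.00122).

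The green tissue markers had higher means in Sarno in each variety, as had the 2 rare transcripts Solyc05g056170 and Solyc06g068650. In SM both transcripts overlapped between locations, as did Solyc05g056170 in RSV. The 2 chlorophyll a-b binding genes, Solyc03g115900 and Solyc05g056050, summed to at most 0.125 FPKM in the H Acerra libraries, against 0.413 to 5.04 FPKM in H Sarno. They summed to between 0.0685 and 0.190 FPKM in SM Acerra, against 0.519 to 14.6 FPKM in SM Sarno, and to at most 0.189 FPKM in RSV Acerra, against 1.07 to 9.98 FPKM in RSV Sarno. The Sarno sums were above the Acerra sums in every variety, and of the genes tested, 1 in H, 2 in SM and 1 in RSV, 0 passed with limma, where unadjusted p under 0.05 was reached by Solyc03g115900 in H and RSV. Solyc03g115900 passed in RSV without Sarno replicate 3, with a log2 fold change of -3.87 (adjusted p = 0.00034), and the RSV Sarno sums were 8.98 and 9.98 FPKM. The ripe fruit markers summed to between 6403 and 9365 FPKM in RSV Acerra, against 9510 to 18489 FPKM in RSV Sarno. In SM the sums went the other way through 1 marker, Solyc03g031860, with 12839 to 18910 FPKM in Acerra against 5170 to 12150 FPKM in Sarno. In H they overlapped, with 9309 to 12970 FPKM in Acerra against 11614.5 to 17445 FPKM in Sarno. Solyc03g031860, listed at 0 in SM Sarno and at 3250 to 4098 FPKM in SM Acerra, had an SM log2 fold change of 12.8 (adjusted p = 1.76e-08 by limma). Of 4 markers tested in SM it was the 1 that passed. The other abundant markers overlapped between locations in SM. Solyc10g080210 had 5937 to 10515 FPKM in Acerra against 1808 to 6670 FPKM in Sarno, and Solyc09g089580 3285 to 4256 FPKM against 3324 to 5678 FPKM. The 1-aminocyclopropane-1-carboxylate oxidase gene ACO4 (Solyc12g005940) was lower in RSV Acerra with a log2 fold change of -2.52 (adjusted p = 0.00222). It averaged 0.102 FPKM in RSV Acerra and 2.97 FPKM in RSV Sarno. Without Sarno replicate 3 the highest RSV Sarno sum was 10879 FPKM and the ACO4 value -2.64 (adjusted p = 0.00093). The part of these markers in the member results was not tested.

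The 4CL-like gene Solyc06g035960 (chr6:22012027-22016323 in H) had the lowest adjusted p of the members' location tests, in SM. The study already lists this gene among its differentially expressed SM transcripts, from these same libraries. It measured 51.4, 46.4 and 53.6 FPKM in SM Acerra, against 5.46, 13.4 and 9.18 FPKM in SM Sarno. The SM Acerra libraries were close together and all well above the Sarno libraries. It measured 32.4, 42.4 and 48.3 FPKM in H Acerra, against 34.9, 22.3 and 24.5 FPKM in H Sarno, and 30.2, 20.3 and 23.6 FPKM in RSV Acerra, against 21.5, 20.9 and 19.0 FPKM in RSV Sarno, with overlap in both. The log2 fold change was 2.45 (SE 0.29, adjusted p = 0.00622 by limma) in SM, a ratio of means of 5.40. It was 0.59 (SE 0.22, adjusted p = 0.134) in H and 0.25 (SE 0.16, adjusted p = 0.325) in RSV, or 0.20 (adjusted p = 0.434) in RSV without Sarno replicate 3. The SM call held in 6 of 6 fits that left out 1 library, with an adjusted p of 0.0427 at most. It was lost when loci of low level were not filtered out, with an adjusted p of 0.0588.

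The ratio of the ligase transcripts is a description of the same values. Solyc03g117870 was 3.80 ± 0.338 times as abundant as Solyc06g035960 in SM Acerra and 22.6 ± 10.7 times in SM Sarno (SD, n = 3). The ratio was 3.94 ± 0.759 in H Acerra and 6.03 ± 1.51 in H Sarno, and 7.07 ± 1.27 in RSV Acerra and 9.70 ± 0.501 in RSV Sarno, or 9.89 in RSV Sarno without replicate 3. The low level of the 4CL-like gene in SM Sarno was the lowest of the 6 groups and did not overlap the next, RSV Sarno.

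**Figure D3:**
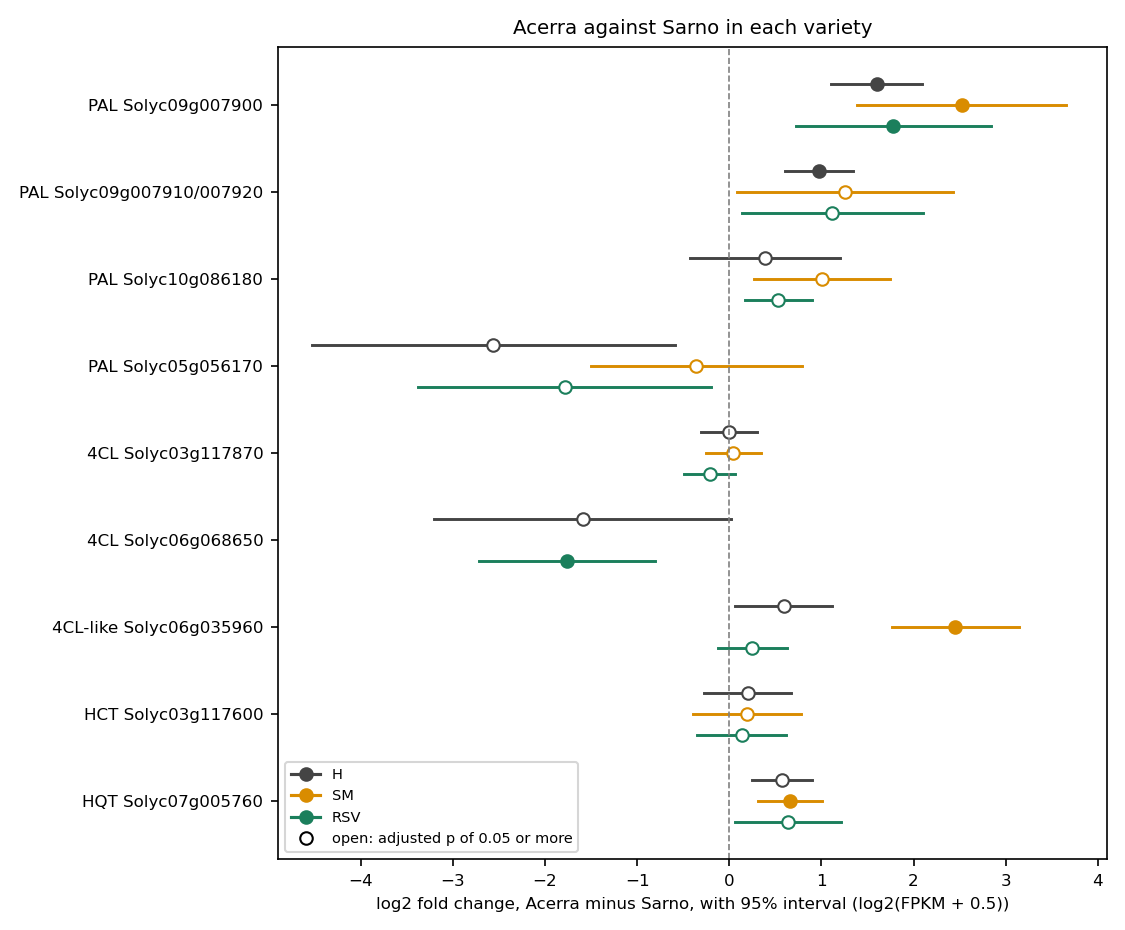
Log2 fold change between Acerra and Sarno (horizontal axis, log2(FPKM + 0.5)) with its 95% interval for each member in H, SM and RSV; filled points have an adjusted p under 0.05. Solyc09g007900 is filled in all 3 varieties and, without rescaling of the libraries, HQT sits between 0.57 and 0.66 in all 3. Solyc06g068650 has no SM point because it was not tested there.

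Of the acyltransferases, HQT was the more abundant and had higher means in Acerra in all 3 varieties, while HCT had means within the spread of its libraries. HQT (Solyc07g005760, chr7:607976-611742 in H) measured 132, 147 and 144.5 FPKM in H Acerra, against 94.8, 109 and 82.8 FPKM in H Sarno. In SM it measured 61.2, 81.4 and 69.2 FPKM in Acerra, against 39.0, 50.3 and 44.3 FPKM in Sarno. In RSV it measured 111, 139 and 101 FPKM in Acerra, against 61.4, 63.3 and 106 FPKM in Sarno. H and SM did not overlap between locations, and in RSV the high Sarno replicate 3 lay inside the Acerra range. The log2 fold change was 0.57 (SE 0.14, adjusted p = 0.0519) in H, 0.66 (SE 0.15, adjusted p = 0.0429) in SM and 0.64 (SE 0.24, adjusted p = 0.132) in RSV, so that HQT passed the test in SM alone. The SM call was lost without Acerra replicate 1, 2 or 3 (adjusted p = 0.058, 0.121 and 0.139) or Sarno replicate 1 or 3 (0.101 and 0.109), and with quantile normalization (0.0543) or without a trend in the variance (0.0623). The H value was 0.44 with median ratio scaling (adjusted p = 0.109) and 0.22 with quantile normalization (0.4). Without Sarno replicate 3 the RSV value was 0.89 (SE 0.15, adjusted p = 0.0101).

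HCT (Solyc03g117600, chr3:60768803-60774209 in H) averaged 14.1 ± 2.96 FPKM in H Acerra and 12.1 ± 2.12 FPKM in H Sarno (SD, n = 3). It averaged 13.3 ± 4.71 FPKM in SM Acerra and 11.2 ± 1.61 FPKM in SM Sarno, and 8.19 ± 2.36 FPKM in RSV Acerra and 7.24 ± 0.628 FPKM in RSV Sarno. Libraries overlapped in every variety. The H log2 fold change was 0.20 (95% interval -0.27 to 0.67), that of SM 0.19 (-0.40 to 0.77) and that of RSV 0.14 (-0.35 to 0.62), with adjusted p values of 0.533, 0.664 and 0.69. In SM the sign turned without Acerra replicate 1 and in RSV without Acerra replicate 2, and without Sarno replicate 3 the RSV value was 0.07 (adjusted p = 0.848). HQT exceeded HCT 10.4 ± 2.34 times in H Acerra and 8.08 ± 2.11 times in H Sarno, 5.89 ± 2.54 times in SM Acerra and 4.07 ± 1.10 times in SM Sarno, and 14.7 ± 2.15 times in RSV Acerra and 10.9 ± 4.64 times in RSV Sarno (SD, n = 3), or 8.21 times in RSV Sarno without replicate 3.

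The order of the 6 groups differed from member to member, and is given as a description across separate runs. Solyc09g007900 was highest in SM Acerra (184 ± 19.8 FPKM) and lowest in RSV Sarno (24.1 ± 12.02 FPKM), and only the step from H Acerra (162 ± 21.2 FPKM) to RSV Acerra (79.4 ± 25.4 FPKM) separated neighbours without overlap. HQT was highest in H Acerra (141 ± 7.75 FPKM) and lowest in SM Sarno (44.5 ± 5.64 FPKM), with overlap between all neighbours but SM Acerra (70.6 ± 10.2 FPKM) and SM Sarno. The joint chromosome 9 value ran highest in RSV Acerra (105 ± 7.61 FPKM) and H Acerra (94.7 ± 8.96 FPKM), and lowest in SM Acerra (19.2 ± 14.3 FPKM) and SM Sarno (6.59 ± 1.73 FPKM). SM Acerra lay below every H library, and its replicate 1 (35.5 FPKM) above RSV Sarno replicate 3 (24.3 FPKM). HCT and Solyc03g117870 overlapped between all neighbours. Solyc09g007900 in SM Acerra stood above 95.1% of the loci that averaged 0.5 FPKM or more in that group, and Solyc03g117870 above 93.4% to 95.9% in the 6 groups. HCT stood above 38.5% to 51.4%, in the middle of the range.

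Whether the location difference itself differed between varieties was tested as an interaction over the 12 libraries of each pair, with the first named variety minus the second. Over all loci 0.189% passed between SM and H, 0.188% between RSV and H and 0.767% between RSV and SM. Of the 9 members, 0 passed between SM and H and 0 between RSV and H with limma, where 1 and 0 had an unadjusted p under 0.05. Between RSV and SM 1 of 9 passed, and 2 had an unadjusted p under 0.05. The 3 comparisons share libraries.

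Solyc06g035960 was the member that passed, with a location difference smaller in RSV than in SM by 2.20 on the log2 scale: the difference was -2.20 (SE 0.36, 95% interval -2.995 to -1.41, adjusted p = 0.0228 by limma). Between SM and H it was 1.86 (SE 0.39, 95% interval 0.99 to 2.74), with an adjusted p of 0.142, and 0.0396 without SM Sarno replicate 2. Between RSV and H it was -0.34 (SE 0.28, adjusted p = 0.593). The RSV and SM call held in 5 of 12 fits that left out 1 library. It was lost without SM Acerra replicate 1, 2 or 3 (adjusted p = 0.0521, 0.053 and 0.0787), RSV Acerra replicate 2 or 3 (0.0627 and 0.0682) or RSV Sarno replicate 1 or 2 (0.0665 at most), with values between -2.49 and -1.88 over the 12 fits. Without RSV Sarno replicate 3 it was -2.25 (adjusted p = 0.0192), and Solyc06g068650 then passed too, with -1.85 (adjusted p = 0.0192) in place of -1.39 (SE 0.50, adjusted p = 0.243). The study had listed Solyc06g035960 as differentially expressed in SM on these libraries, so its larger SM response is not independent evidence.

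For HQT the differences in location response were 0.09 (95% interval -0.36 to 0.53) between SM and H, 0.07 (-0.57 to 0.71) between RSV and H and -0.02 (-0.68 to 0.64) between RSV and SM. These intervals are wide enough to hold differences about as large as the location effect itself. For Solyc09g007900 the differences were 0.92 (-0.34 to 2.19) between SM and H, 0.18 (-0.995 to 1.36) between RSV and H and -0.74 (-2.34 to 0.85) between RSV and SM, with adjusted p values of 0.564, 0.898 and 0.685. Without SM Sarno replicate 1 the difference was 0.33 between SM and H (adjusted p = 0.69) and -0.14 between RSV and SM (0.943). Without RSV Sarno replicate 3 it was -0.26 between RSV and H and -1.18 between RSV and SM, and for HQT 0.32 and 0.24. The larger PAL fold change in SM was thus not shown to differ from that of H or RSV.

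**Figure D4:**
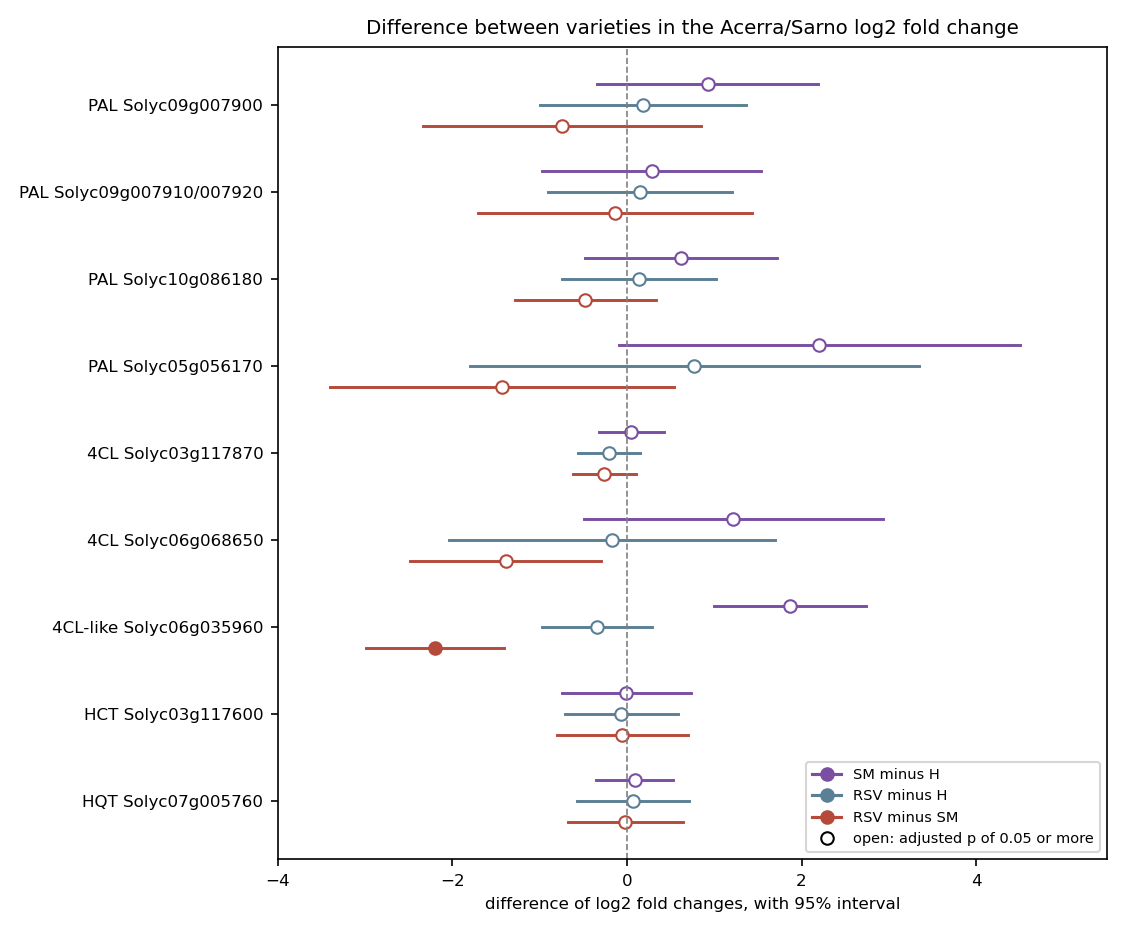
Difference between 2 varieties in the Acerra/Sarno log2 fold change (horizontal axis) with its 95% interval for each member and pair of varieties; filled points have an adjusted p under 0.05. The single filled point is Solyc06g035960 between RSV and SM, at -2.20, and the HQT and HCT points lie near 0.

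Further PAL loci and later steps were counted from lists drawn up from general knowledge of tomato gene IDs, with earlier results of these data known. Of 10 other PAL IDs, 9 were listed on 8 loci in each variety. They summed to at most 8.85 FPKM in H Acerra and 37.9 FPKM in H Sarno, 0.878 FPKM in SM Acerra and 0.987 FPKM in SM Sarno, and 2.61 FPKM in RSV Acerra and 3.27 FPKM in RSV Sarno. The highest sum was that of H Sarno replicate 1, where Solyc00g282510 measured 18.7 FPKM and Solyc10g011930 18.1 FPKM, singled out after their values were seen, and the sum was above the 27.0 FPKM of Solyc10g086180 in the same library. Of these, 5 were tested in H and 2 in RSV, and 0 passed with limma with all libraries in. Solyc00g282510 passed in RSV without Sarno replicate 3, with a log2 fold change of -0.63 (adjusted p = 0.0399). In SM all were below the minimum. One of them, Solyc03g042560, annotated in the study as a PAL, averaged 0.811 ± 0.770 FPKM in H Acerra and 0.0406 ± 0.0139 FPKM in H Sarno (SD, n = 3) and was below the minimum for the test in every variety.

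Of the 18 genes listed for later steps, from cinnamate hydroxylation to lignin precursors, 16 loci were tested in H, and 1 passed as higher in Acerra and 1 as higher in Sarno. In SM 12 were tested, with 1 and 1, and in RSV 13, with 2 and 4. They had a median log2 fold change of -0.51 (H), 0.05 (SM) and -0.91 (RSV), beside 0.10, 0.02 and -0.02 over all loci. Without Sarno replicate 3, 22.8% of all RSV loci passed, 10.5% higher in Acerra and 12.3% in Sarno. Of the 13 loci of later steps 9 passed in that fit, 2 higher in Acerra and 7 in Sarno, with a median of -1.07. Their summed level was 239 to 333 FPKM in RSV Acerra, against 407 to 448 FPKM in RSV Sarno (407 and 436 FPKM without replicate 3), without overlap, whereas in H and SM the 2 locations overlapped.

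Among 6 genes that the study annotates beside the pathway and chose on these libraries, so that their direction is not independent evidence, 3 were tested in H, 2 in SM and 4 in RSV, and 1 passed, in SM. This was the locus of Solyc08g068690, annotated as an N-acetyltransferase of hydroxycinnamic acid and tyramine amide synthesis. Its value is joint with Solyc08g068700 and, in H and SM, Solyc08g068730. It averaged 101 ± 18.6 FPKM in SM Acerra and 15.9 ± 9.30 FPKM in SM Sarno (SD, n = 3). Its log2 fold change was 2.83 (SE 0.49, adjusted p = 0.0198 by limma) in SM, with 3 of 6 fits that left out 1 library past the threshold (adjusted p up to 0.0928). In H it was 1.05 (SE 0.60, adjusted p = 0.285) and in RSV 0.92 (SE 0.30, adjusted p = 0.0967). With RSV Sarno replicate 3 left out it was 1.199 in RSV (adjusted p = 0.0171). In that fit 3 of the 4 genes tested in RSV passed, 1 higher in Acerra and 2 in Sarno, beside 22.8% of all loci.

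Across the 18 libraries, with log2(FPKM + 0.5) centred on the mean of each variety, the correlations between members varied. Solyc09g007900 correlated with the joint chromosome 9 value with a Pearson r of 0.79, Solyc06g035960 with 0.78 and HQT with 0.72. Solyc03g117870 had an r between -0.22 and 0.13 with the other 6 members that reached a mean of 1 FPKM in each variety. The values of Solyc09g007900 without RSV Sarno replicate 3 were 0.74, 0.82 and 0.86, and Solyc03g117870 lay between -0.23 and 0.12. These values are a description, since the libraries share their location and depth. Among 12504 loci with a single gene ID, the one most like Solyc09g007900 was Solyc01g009160 (r = 0.95), the one most like Solyc06g035960 was Solyc04g074680 (r = 0.95) and the one most like HQT was Solyc09g098070 (r = 0.94). The highest r was 0.89 for Solyc10g086180, with Solyc12g088390, and 0.87 for the joint chromosome 9 value, with Solyc02g093360. It was 0.83 for Solyc03g117870, with Solyc06g030490, and 0.76 for HCT, with Solyc05g053330. Over the 17 libraries without RSV Sarno replicate 3 the most like locus was another one for Solyc03g117870 (Solyc03g063350, r = 0.88), Solyc06g035960 (Solyc03g114600, r = 0.95) and HQT (Solyc08g066210, r = 0.97), and the same one for the other 4 members.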

How the data were processed

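RNA of red ripe fruit was sequenced as 18 libraries (TruSeq RNA Sample Prep Kit v2, which does not keep strand). The values used are the FPKM per locus that the authors deposited, in which a comma is the decimal sign. Per the labels and the methods of the study, H reads were aligned to the SL2.40 reference and those of SM and RSV to their own assemblies with TopHat2 2.0.6, and FPKM were estimated per variety with Cufflinks 2.1.1, with multi-read correction and annotation-guided assembly. Base calling used CASAVA 1.8.2. Read counts were not used here, so no interval is given for a single FPKM, and precision comes from the 3 libraries of a group.

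Log2(FPKM + 0.5) was tested, for loci averaging 0.5 FPKM or more in the fitted libraries, with limma 3.58.1 in R 4.3.3 (eBayes with a trend, two-sided, Benjamini-Hochberg adjustment over all loci tested, threshold 0.05), for Acerra against Sarno in each variety (6 libraries) and for the interaction of location and variety in each pair of varieties (12 libraries, loci matched by gene ID). The fits were tested on simulated data. An exact permutation test of 3 against 3 libraries cannot give a two-sided p below 0.1 and was not used. Sums, ratios and correlations carry no p-value and were computed with pandas 2.3.3 and numpy 2.4.6 under Python 3.11.15.

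The members and the lists of other genes were chosen with earlier results of these data known. All members are named. Other loci are named where the study annotates them, as tissue markers, or as the locus with the highest correlation with a member. The settings varied were the pseudocount (0.1 and 1), the filter (none, or a mean of 1 FPKM), median ratio and quantile scaling, eBayes without a trend and robust, a replicate block, and each library left out in turn. Leaving RSV Sarno replicate 3 out of the other gene lists, transcript shares and correlations was chosen after seeing the data. 0 rows of the RefSeq gene table held an ID of this annotation, so sequences were not printed.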

Additional observations from a re-analysis of the deposited data

Results flagged for a closer look

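The 4CL-like gene Solyc06g035960 differed in its location response between RSV and SM by a test of the difference itself. The study already lists this gene as differentially expressed in SM on these same libraries, so the result is not independent evidence. Its Acerra minus Sarno log2 fold change was 0.25 in RSV and 2.45 in SM, a difference of -2.20 (SE 0.36, limma adjusted p = 0.0228), with 3 of 3 SM Acerra libraries above all SM Sarno libraries and with overlapping libraries in RSV. No cause was tested. Groups of 3 libraries are too small for a test of single outlying libraries.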

How the results depend on the processing

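With alternative settings other than a library left out, 211 of 231 location values and 230 of 240 interaction values kept their direction and their side of the threshold. With 1 library left out, 120 of 155 and 272 of 321 did so. Of the 2 members past the threshold in H, no filter left 0, quantile normalization 1, a replicate block 1, and leaving out 1 library 0 to 2. Of 3 in SM, no filter left 0 and leaving out 1 library 1 to 3. Of 2 in RSV, no filter and a replicate block left 0, and a pseudocount of 0.1, a minimum mean of 1 FPKM (Solyc06g068650 is then not tested), eBayes without a trend and robust eBayes each left 1. Quantile normalization left 0 of the 2 and gave 1 other, Solyc10g086180, and leaving out 1 library gave 0 to 5. Between RSV and SM the 1 member was lost without a filter (0) and with a replicate block (0), and leaving out 1 library gave 0 to 2. Between SM and H leaving out 1 library gave 0 to 1, and between RSV and H 0. With 1 library left out the ratio of the PAL sums lay between 2.13 and 2.36 for H, between 3.56 and 5.10 for SM and between 1.78 and 2.74 for RSV. The cause of these changes was not tested.

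For Acerra and Sarno libraries with the same number, the correlations of their deviations were 0.115, 0.053 and 0.0184 in H. The values were 0.238, -0.0083 and 0.106 for SM, and 0.275, -0.0321 and 0.128 for RSV. Libraries with different numbers had a lowest and highest value of -0.119 and 0.0675 (H), -0.222 and 0.143 (SM), and -0.215 and 0.0925 (RSV). Replicate 1 with replicate 1 gave the highest value of each variety. Whether libraries with the same number were paired was not tested. With the replicate block, 1113 loci passed in H, 1271 in SM and 1121 in RSV, against 1598, 1490 and 2167 without it, and the adjusted p was 0.0516 for the joint chromosome 9 value in H, 0.0721 for Solyc09g007900 and 0.0543 for Solyc06g068650 in RSV, and 0.0595 for Solyc06g035960 between RSV and SM.

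Over all loci, no filter gave 253 calls in H, 314 in SM and 1031 in RSV. Leaving out 1 library gave between 3 and 1805 H calls, between 358 and 1646 SM calls and between 589 and 4176 RSV calls.

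Signs that turned belonged to values that did not pass the threshold. Quantile normalization gave -0.17 for Solyc03g117870 in SM and 0.17 for its difference between RSV and H. For HCT the difference was 0.088 with median ratio scaling and 0.028 with quantile normalization between SM and H, 0.076 and 0.068 between RSV and H, and 0.037 with quantile normalization between RSV and SM. For HQT between RSV and SM it was 0.0098 and 0.087. With 1 library left out, the log2 fold change of Solyc03g117870 ran from -0.10 to 0.056 in H and -0.050 to 0.12 in SM, and that of HCT from -0.074 to 0.38 in SM and -0.076 to 0.27 in RSV. Between SM and H the difference ran from -0.27 to 0.72 for the joint chromosome 9 value, -0.045 to 0.15 for Solyc03g117870, -0.27 to 0.18 for HCT and -0.019 to 0.19 for HQT. Between RSV and H it ran from -0.26 to 0.53 for Solyc09g007900, -0.34 to 0.52 for the joint value, -0.23 to 1.45 for Solyc05g056170, -0.26 to 0.43 for Solyc10g086180, -0.95 to 0.44 for Solyc06g068650, -0.27 to 0.089 for HCT and -0.067 to 0.32 for HQT. Between RSV and SM it ran from -0.62 to 0.42 for the joint value, -0.27 to 0.21 for HCT and -0.16 to 0.24 for HQT.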
